A study of Mus musculus with 24 samples.

Results

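The TNF receptor superfamily was followed through 10 of its genes: Fas, Tnfrsf1a, Tnfrsf10b, Tnfrsf21, Ngfr, Tnfrsf1b, Tnfrsf12a, Tnfrsf19, Cd40 and Ltbr. The members were all probe sets whose gene symbol in the platform annotation was exactly 1 of these names, which gave 20 of the 45037 probe sets that measure transcripts (10 of 18194 genes with a symbol of their own). The study measured RNA from embryonic cortical neurons of Il1rap-/- mice on Affymetrix mouse expression arrays. Il1rap encodes the IL-1 receptor accessory protein (AcP), without which IL-1 cannot signal through its receptor, so every group, controls included, lacks the endogenous gene. The design asked how neurons answered IL-1b once they carried AcP, its brain isoform AcPb, both, or CD25. There were 8 groups of 3 arrays. CD25 neurons expressed CD25 (an IL-2 receptor chain) in place of an accessory protein, and the remaining arms expressed AcP, AcPb, or AcP with AcPb. Each arm was taken either as a control or after 4 h with IL-1b at 10 ng/ml, in serum-free Neurobasal medium with B-27. The sources used here do not give how the proteins were introduced. They also do not say that the 3 arrays within a group represent independent cultures or litters, so each p-value speaks only of the spread among those arrays, which may be technical.

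TNF receptors are membrane proteins that trimeric ligands of the TNF family bind and cluster. One branch carries a cytoplasmic death domain through which it can recruit adaptors such as FADD and TRADD and reach the caspases; Fas, Tnfrsf1a (the main TNF receptor), Tnfrsf10b (the mouse TRAIL receptor), Tnfrsf21 (death receptor 6) and Ngfr (the p75 neurotrophin receptor) belong to it. The other branch has no death domain and binds TRAF adaptors that lead to NF-kB and stress kinases; Tnfrsf1b (the second TNF receptor), Tnfrsf12a (Fn14, the receptor for TWEAK), Tnfrsf19 (TROY), Cd40 and Ltbr (the lymphotoxin beta receptor) were placed there. In nervous tissue Ngfr and Tnfrsf21 are known for roles in axon pruning and neuronal death, and Tnfrsf19 and Ngfr for their place in the Nogo receptor complex.

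The promoters of 4 genes are shown here because these genes carry the main differences below: each was lower in the controls of all 3 accessory protein arms than in CD25 controls, and Tnfrsf12a also carried the IL-1b response. Tnfrsf19, of which 1 of 3 tested probe sets was lower in all 3 arms by a small margin, is not shown. RefSeq windows of 250 bases before the transcript start (assembly GRCm38.p6) were found for 8 of the 10 members. Each is written 5′ to 3′ on the gene's own strand, and capitals mark matches to 3 motifs searched on either strand: the NF-kB-like motif GGNNTTTCC, the AP-1 motif TGANTCA and the GC box GGGCGG, whose matches may overlap one another.
Tnfrsf12a: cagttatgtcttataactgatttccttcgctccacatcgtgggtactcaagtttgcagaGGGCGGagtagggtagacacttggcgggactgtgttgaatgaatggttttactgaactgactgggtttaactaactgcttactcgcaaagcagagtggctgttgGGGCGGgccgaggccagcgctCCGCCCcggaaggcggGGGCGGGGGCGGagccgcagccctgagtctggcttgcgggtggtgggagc
Fas: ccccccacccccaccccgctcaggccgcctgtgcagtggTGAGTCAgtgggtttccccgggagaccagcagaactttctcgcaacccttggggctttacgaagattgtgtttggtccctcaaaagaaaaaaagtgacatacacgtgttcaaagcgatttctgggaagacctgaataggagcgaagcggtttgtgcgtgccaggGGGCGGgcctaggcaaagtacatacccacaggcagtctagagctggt
Tnfrsf1a: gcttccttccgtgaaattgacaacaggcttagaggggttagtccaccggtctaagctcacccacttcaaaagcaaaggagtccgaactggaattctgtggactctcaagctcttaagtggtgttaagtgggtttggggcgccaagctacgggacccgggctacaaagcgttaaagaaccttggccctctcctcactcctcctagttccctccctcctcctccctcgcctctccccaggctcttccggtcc
Ngfr: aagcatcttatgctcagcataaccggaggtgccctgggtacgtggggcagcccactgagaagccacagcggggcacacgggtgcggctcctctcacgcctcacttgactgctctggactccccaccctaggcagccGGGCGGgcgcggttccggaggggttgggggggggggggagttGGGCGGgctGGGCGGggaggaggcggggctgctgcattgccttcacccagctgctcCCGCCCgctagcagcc
The windows lie at chr17:23677450-23677699 (minus strand) for Tnfrsf12a, chr19:34290409-34290658 (plus strand) for Fas, chr6:125349473-125349722 (plus strand) for Tnfrsf1a and chr11:95587699-95587948 (minus strand) for Ngfr. The Tnfrsf12a window held 5 GC box matches, Ngfr 4 and Fas 1, while Tnfrsf1a had no match to any of the motifs. Fas held the only AP-1 match among the 9 member windows (Tnfrsf19 has 2 windows), against 6.75% of all 32851 RefSeq windows of this length. No member window held the NF-kB-like motif, which 4.93% of all windows did, and 7 of the 9 held a GC box, against 32.7%. These are matches of letters in short windows and do not show binding.

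The deposited values were linear array intensities, from -1617.3 to 13068.7, with 16.4 to 18.2% of the values on each array below 0 and array medians of 55.0 to 66.4. Fits used log2(intensity + 16) after values below 0 were set to 0, so a change that starts from values below 0 depends on the added 16, and no fold is given for it. Probe sets above the 40th percentile of their array on 3 or more arrays were tested, 30468 in all. Of the 20 member probe sets 13 were tested, and these covered 9 of the 10 genes. Il1rap and Il2ra (which encodes CD25) could check no label, since an introduced sequence need not hold the stretch that a probe set reads; the 5 Il1rap probe sets read 21.1 to 149.5 over all arrays and the 2 Il2ra probe sets 6.70 to 46.3. On all 5 Il1rap probe sets the CD25 arrays, given no accessory protein, overlapped those of the other arms. Probe set 1421844_at read 91.05 to 145.7 in CD25 arrays and 93.6 to 149.5 in the others, above the array medians. The source of this signal in neurons that lack the gene was not tested. Neuronal markers were present in every group, with summed intensities of 38780 to 46050 over 12 genes. Markers of other cells were mixed. Of the microglial list Aif1 and C1qa had mean intensities below 0 in all 8 groups, while Csf1r had group means of 277 to 636 and Cd68 of 39.4 to 56.0. Of the oligodendrocyte lineage Mog was below 0 in all groups, while Olig1 had means of 2802 to 4131, Mbp of 486 to 1593 and Pdgfra of 54.5 to 286. Of the endothelial markers Pecam1 was below 0 in all groups and Kdr had means of 62.0 to 83.9.

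Tnfrsf12a was the member that changed with IL-1b. In AcP neurons its probe set 1418572_x_at rose from below 0 in every control array to a clear signal, and this was the only 1 of the 13 member probe sets to pass in any of the 4 IL-1b comparisons. On this probe set the AcP control arrays read -102, -139 and -39.7, and the AcP arrays with IL-1b read 146, 180.2 and 107. The 2 groups did not overlap. The change was 3.30 ± 0.52 (log2 change ± SE, limma, Benjamini-Hochberg adjusted p = 0.0036), with a 95% interval of 2.20 to 4.40. The second Tnfrsf12a probe set, 1418571_at, read -128, -183 and -91.8 in AcP controls and 152, 174 and 22.8 with IL-1b. These groups did not overlap either, but IL-1b replicate 3 was low, and the change of 2.75 ± 0.62 missed the threshold (adjusted p = 0.067). Without that array it was 3.48 and passed (adjusted p = 0.011), and it also passed with 4 added, with a generalised log and with an intensity trend. The call on 1418572_x_at was lost where limma weighted the arrays by their quality (3.29, adjusted p = 0.077), and its size moved from 1.69 with 64 added to 5.18 with 4 added and 7.54 with a generalised log. Probe sets ending in _x_at hold probes that may also bind other transcripts. The readings of the 2 Tnfrsf12a probe sets had a Pearson correlation of 0.891 over the 24 arrays, which share the arms' difference in level described below.

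Neurons with AcP and AcPb together gave a less even Tnfrsf12a reading. On 1418572_x_at the controls read -30.2, -34.5 and 13.9, and the IL-1b arrays 16.2, 98.4 and 218. The groups were just apart, and the IL-1b arrays spread widely. The change was 2.27 ± 0.52, which did not pass (adjusted p = 0.094), while without IL-1b replicate 1, the lowest, it was 3.05 and passed (adjusted p = 0.0014). On 1418571_at the controls were -47.0, 85.3 and -3.95 and the IL-1b arrays 81.9, 80.5 and 213, which overlapped through control replicate 2. That change was 2.13 ± 0.62 (adjusted p = 0.23), and without that control it was 3.02 and passed (adjusted p = 0.019).

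In this arm the array names in the labels carry 2 codes, 1 for control replicates 1 and 2 and the other for control replicate 3 and all IL-1b arrays. With the code as a block the change on 1418572_x_at was 1.67 (adjusted p = 1) and on 1418571_at 3.02 (adjusted p = 0.44).

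Neither AcPb alone nor CD25 gave a Tnfrsf12a change that passed. With AcPb, 1418572_x_at read -66.5, -74.8 and -73.2 in controls and 34.1, -61.3 and -89.5 with IL-1b, so 5 of the 6 arrays were below 0. The change was 0.55 ± 0.52 (adjusted p = 0.79), and that of 1418571_at was -0.35 ± 0.62 (adjusted p = 0.91). In CD25 neurons 1418572_x_at was high before any treatment, at 243, 319 and 289 in controls and 204, 177 and 353 with IL-1b. The CD25 groups overlapped, and the change was -0.25 ± 0.52 (adjusted p = 0.95).

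**Figure D1:**
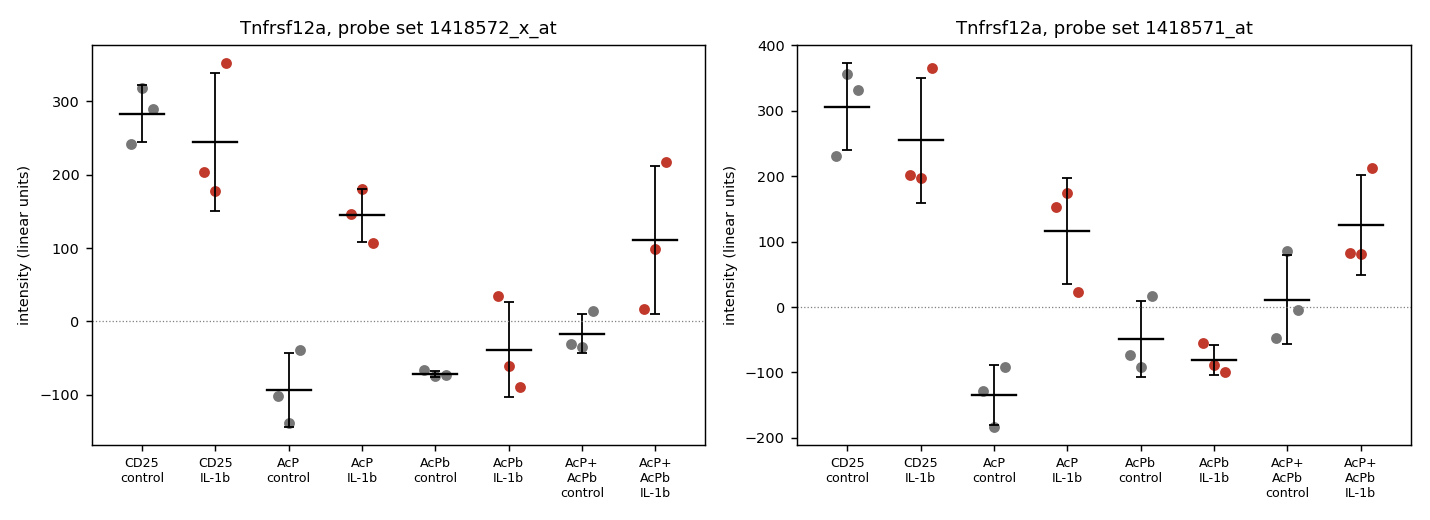
Intensity of the 2 Tnfrsf12a probe sets in each array (points, linear units) for the 8 groups on the x axis, controls in grey and IL-1b in red, with the group mean (line) and SD (bars, n = 3 arrays). CD25 arrays are high with and without IL-1b, AcP arrays move from below 0 to 107 to 180.2 on 1418572_x_at, and AcPb arrays stay near or below 0.

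The plot of Tnfrsf12a by array shows that the arms began from different levels. A test of the difference between responses therefore compares a change from below 0 with a change from a high level. The AcP response exceeded the CD25 response by 3.55 ± 0.74 on 1418572_x_at (95% interval 2.00 to 5.11), which did not pass (adjusted p = 0.068), and by 3.03 ± 0.88 on 1418571_at (adjusted p = 0.31). Without AcP control replicate 3 the former passed, at 3.55 (adjusted p = 0.047), and it also passed with the 60th percentile filter, with an intensity trend and with only the arrays compared. Adding AcPb to AcP gave a response lower by 1.03 on the log2 scale on 1418572_x_at (-1.03 ± 0.74), with a 95% interval of -2.59 to 0.53 that holds both no difference and a large one. After IL-1b, the Tnfrsf12a level of AcP neurons lay below that of IL-1b-treated CD25 neurons by -0.67 ± 0.52 on 1418572_x_at (adjusted p = 0.50) and by -1.28 ± 0.62 on 1418571_at (adjusted p = 0.24), neither of which passed.

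Among the 13 tested member probe sets, the count called in AcP neurons was 1, which is 7.69%, against 0.404% of all 30468 probe sets in that comparison. At an unadjusted p under 0.05 there were 2 member probe sets (8.24% of all). The median member change was 0.07, and that of all probe sets -0.00. In AcP with AcPb limma called 0 members, against 0.256% of all probe sets, with 4 at an unadjusted p under 0.05 (9.78% of all) and a median member change of -0.01. In AcPb it called 0 members (0.00985% of all) with 0 at an unadjusted p under 0.05 (10.1% of all), and in CD25 it called 0 (0% of all) with 2 unadjusted (5.62% of all). Of the response differences, AcP minus CD25 had 0 members called by limma (0.19% of all) and 3 at an unadjusted p under 0.05 (8.5% of all). AcPb minus CD25 had 0 called (0.00328%) and 0 unadjusted (9.59%), and AcP with AcPb minus AcP had 0 called (0.00328%) and 1 unadjusted (5.12%).

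The death-domain receptors showed no IL-1b change that passed in any arm. Fas, the receptor for Fas ligand, read -48.9, -49.3 and -26.8 in AcP controls and 11.8, 46.8 and -9.95 with IL-1b. These arrays did not overlap but stayed near 0, and the change was 0.92 ± 0.46 (adjusted p = 0.64). With AcP and AcPb together Fas read -31.8, -54.4 and -15.3 in controls and -34.0, 8.92 and 41.5 with IL-1b (0.83 ± 0.46, adjusted p = 0.59), and all 6 AcPb arrays were below 0. In CD25 neurons Fas read 38.5, 67.8 and 54.2 in controls and -17.9, 25.5 and 41.4 with IL-1b, and these groups overlapped (-1.02 ± 0.46, adjusted p = 0.88). Tnfrsf1a had IL-1b changes of 0.15 ± 0.13 in AcP (adjusted p = 0.83, arrays apart), -0.35 ± 0.13 in AcP with AcPb (adjusted p = 0.36), -0.02 ± 0.13 in AcPb (adjusted p = 0.98) and -0.05 ± 0.13 in CD25 (adjusted p = 0.97). The changes of the 2 Tnfrsf21 probe sets lay between -0.15 and 0.13 in the 4 arms, and the changes of Ngfr 1454903_at between -0.38 and 0.29. Arrays of the AcP groups were apart in the upward direction for 4 member probe sets (both of Tnfrsf12a, Fas and Tnfrsf1a), where 4.43% of all probe sets were.

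The TRAF-binding receptors other than Tnfrsf12a also had no IL-1b change that passed. Ltbr in AcP with AcPb read 157, 319 and 301 in controls and 164, 133 and 155 with IL-1b. Control replicate 1 lay among the IL-1b arrays and the other two controls stood far above them. The change was -0.67 ± 0.21 (adjusted p = 0.26), and without control replicate 1 it was -0.98 and passed (adjusted p = 0.019). With the array code as a block it was -0.94 (adjusted p = 0.61). Tnfrsf1b 1418099_at was dim, at 11.3, 31.9 and 8.37 in AcP controls and 44.0, 19.6 and 49.8 with IL-1b, which overlapped (0.71 ± 0.39, adjusted p = 0.67). The fitted IL-1b differences of Cd40 lay between -0.52 and 0.07 in the 4 arms, and those of the brightest Tnfrsf19 probe set, 1448147_at, between -0.10 and 0.06, with no call. The dim Tnfrsf19 probe set 1425212_a_at had -0.50 ± 0.23 in CD25 neurons (adjusted p = 0.88), which with Fas made up the 2 at an unadjusted p under 0.05 there.

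**Figure D2:**
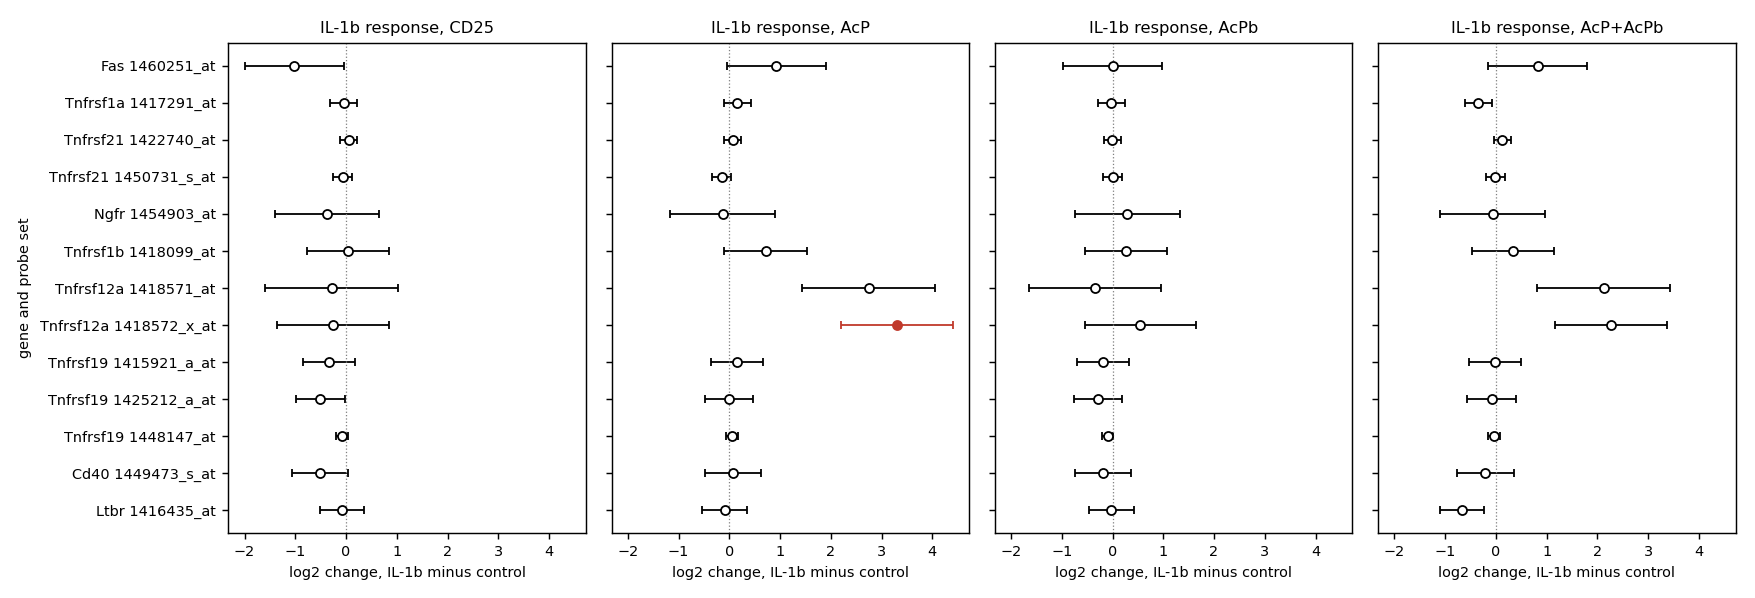
Change with IL-1b (log2 of intensity + 16, x axis) of the 13 tested member probe sets (y axis) in each of the 4 arms; points are fitted changes, bars are 95% intervals, and filled red points passed at adjusted p under 0.05. Tnfrsf12a 1418572_x_at in AcP neurons, at 3.30, is the filled point.

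As the plot of changes with IL-1b shows, the intervals of bright members such as Tnfrsf21 and Tnfrsf1a were narrow, and those of Tnfrsf12a, Fas and Ngfr, whose arrays reached down to or below 0 or spread widely, were broad. For the dim members the arrays could not show small changes.

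Before any IL-1b, the arms already differed in these receptors. Tnfrsf12a, Tnfrsf1a, Fas, Ngfr, Ltbr and 1 of the 3 Tnfrsf19 probe sets were lower in AcP controls than in CD25 controls. In that comparison 7 of 13 member probe sets were called lower and 0 higher, against 6.13% of all probe sets lower, 4.16% higher and 10.3% called either way. In AcPb controls 7 were lower and 1 higher (3.42% and 1.18% of all, 4.59% either way), and in AcP with AcPb 6 were lower and 1 higher (8.92% and 5.35% of all, 14.3% either way). Median member differences were -0.78, -0.29 and -0.19, against 0.02, 0.00 and -0.00 over all probe sets. The 3 comparisons share the CD25 control arrays, so they are not independent of each other. Fas is counted in each of them, although among controls only CD25 arrays can have carried it past the filter on dim probe sets. In whole cultures, fewer cells of a type and less RNA per cell cannot be told apart.

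The largest of these differences was again in Tnfrsf12a. Controls with CD25 read 243, 319 and 289 on 1418572_x_at, and of the 9 control arrays of the other arms only AcP with AcPb replicate 3 was above 0, at 13.9. The differences from CD25 were -4.22 ± 0.52 in AcP (adjusted p = 3.2e-05), -4.22 ± 0.52 in AcPb (adjusted p = 7.2e-05) and -3.92 ± 0.52 in AcP with AcPb (adjusted p = 8.2e-05). On 1418571_at CD25 controls read 231, 357 and 332, AcPb controls -74.0, -91.3 and 16.9, and the differences were -4.31, -3.96 and -3.42 (adjusted p = 0.00015, 0.00067 and 0.0014). Both probe sets kept these calls in every alternative on control arrays in which they were tested. The weakest was 1418571_at in AcP with AcPb, with an adjusted p of up to 0.0497 (limma). In the IL-1b arrays, described below, Tnfrsf12a was called lower than in CD25 in AcPb only. With the other arms mostly below 0 the sizes depend on the added 16 and ran from -9.25 to -2.11 over the alternatives.

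Tnfrsf1a, which was bright in all groups, was also highest in CD25 controls, at levels where the added 16 matters little. Its CD25 controls read 859.7, 922 and 961, its AcP controls 492, 487 and 423, its AcPb controls 564, 463 and 422 and its AcP with AcPb controls 572, 686 and 698. No control of an accessory protein arm reached the lowest CD25 control. The differences were -0.95 ± 0.13 in AcP (adjusted p = 7.6e-05), -0.91 ± 0.13 in AcPb (adjusted p = 0.00024) and -0.48 ± 0.13 in AcP with AcPb (adjusted p = 0.017). The last was lost without CD25 control replicate 2 (-0.48, adjusted p = 0.051), without CD25 control replicate 3 (-0.45, adjusted p = 0.068) and without AcP with AcPb control replicate 1 (-0.39, adjusted p = 0.076).

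Fas and Ngfr followed. The CD25 controls of Fas, at 38.5, 67.8 and 54.2, stood above 0, and all 9 control arrays of the other arms were below it, between -54.4 and -15.3. Because these 9 were set to 0, the fitted difference was the same in every arm, -2.10 ± 0.46 (adjusted p = 0.0066 in AcP, 0.012 in AcPb and 0.0057 in AcP with AcPb), and it is set by the floor. It ran from -5.13 to -0.87 over the alternatives in which Fas was tested. The AcPb call was lost without CD25 control replicate 2 (-1.95, adjusted p = 0.058). Fas was too dim to be tested under the stricter percentile filter and under a filter on the mean over all arrays. Those filters therefore give no check of its calls, which rest on the CD25 controls, the only controls above 0. The filter used here gives no check either. Among controls only the CD25 arrays, where Fas is high, can have brought it into the tested set. Ngfr 1454903_at read 112, 387 and 212 in CD25 controls, and between 17.5 and 62.4 in the 9 controls of the other arms. The groups were far apart, but CD25 controls also differed widely among themselves. The differences were -1.87 ± 0.49 in AcP (adjusted p = 0.020), -2.16 ± 0.49 in AcPb (adjusted p = 0.015) and -1.81 ± 0.49 in AcP with AcPb (adjusted p = 0.019). Without CD25 control replicate 2 no arm kept the Ngfr call (-1.46, -1.75 and -1.40, adjusted p = 0.11, 0.087 and 0.099). It was also lost without CD25 control replicate 3 in AcP and in AcP with AcPb (adjusted p = 0.058 and 0.056), and without control replicate 2 of each accessory protein arm (adjusted p = 0.094, 0.076 and 0.071). With only the arrays compared in the fit it was lost in all 3 arms (adjusted p = 0.14, 0.086 and 0.051), and with array weights in AcP (-1.76, adjusted p = 0.079).

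The remaining death-domain member with a call was Tnfrsf21, which was higher in AcPb controls. It read 634, 617 and 587 there on 1422740_at, against 509, 516 and 425 in CD25 controls, 474, 513 and 594 in AcP controls and 522, 579.6 and 576 in AcP with AcPb controls. AcPb and CD25 controls did not overlap. The difference was 0.34 ± 0.08 in AcPb (adjusted p = 0.021), and it was 0.12 in AcP (adjusted p = 0.38) and 0.21 in AcP with AcPb (adjusted p = 0.094). It was lost without CD25 control replicate 3 (0.25, adjusted p = 0.12) and without AcPb control replicate 1 or 2 (0.31 and 0.33, adjusted p = 0.090 and 0.066), and with only the arrays compared in the fit (adjusted p = 0.13). The second Tnfrsf21 probe set, 1450731_s_at, had group means of 986 to 1104 and no call.

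Ltbr was called lower in 2 of the arms. It read 208, 288 and 233 in CD25 controls, 139, 143 and 119 in AcP controls, 144, 129 and 137 in AcPb controls and 157, 319 and 301 in AcP with AcPb controls. It was lower than in CD25 with AcP (-0.78 ± 0.21, adjusted p = 0.021) and with AcPb (-0.75 ± 0.21, adjusted p = 0.046), and with both it was 0.04 ± 0.21 (adjusted p = 0.92). The AcP call was lost without CD25 control replicate 2 (-0.66, adjusted p = 0.097) or 3 (-0.81, adjusted p = 0.054), and the AcPb call on leaving out any 1 of the 6 arrays compared (-0.85 to -0.63, adjusted p = 0.059 to 0.18). The AcPb call was also lost with the replicate number as a block (-0.75, adjusted p = 0.051), under quantile normalization (-0.71, adjusted p = 0.062) and with no filter on dim probe sets (adjusted p = 0.068). The AcP call was also lost with array weights (-0.79, adjusted p = 0.064) and with only the arrays compared in the fit (adjusted p = 0.064).

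Tnfrsf19 is known from neural progenitors as well as neurons. Its probe set 1448147_at read 809, 848 and 837 in CD25 controls, 713, 675 and 707 in AcP, 734, 706 and 689 in AcPb and 763, 721 and 702 in AcP with AcPb. The CD25 controls were the highest of the 4 control groups by a small margin. The differences were -0.25, -0.22 and -0.19 (SE 0.06 each; adjusted p = 0.0075, 0.024 and 0.030). Leaving out CD25 control replicate 2 or 3 ended the calls in AcPb (adjusted p = 0.094 and 0.084) and in AcP with AcPb (adjusted p = 0.095 and 0.086), as did leaving out AcPb control replicate 2 or 3 (adjusted p = 0.075 and 0.11) or AcP with AcPb control replicate 2 or 3 (adjusted p = 0.098 each). With only the arrays compared in the fit the call was lost in all 3 arms (adjusted p = 0.24, 0.11 and 0.12), and it was also lost in AcPb with array medians centred (adjusted p = 0.11) and in AcP with AcPb under quantile normalization (-0.15, adjusted p = 0.065). The other Tnfrsf19 probe sets, 1415921_a_at (group means 72.4 to 116) and 1425212_a_at (26.2 to 72.7), had no call in these comparisons. In AcP with AcPb both had the opposite sign: 1425212_a_at read 66.8, 69.5 and 81.9 against 50.5, 34.5 and 42.1 in CD25 controls (0.61 ± 0.23, unadjusted p = 0.015, adjusted p = 0.079), and 1415921_a_at read 106, 122 and 121 against 105, 87.4 and 84.6 (0.29 ± 0.24, adjusted p = 0.44). On neither did these groups overlap, so a lower Tnfrsf19 rests on 1 of its 3 tested probe sets.

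Cd40, known for its part in immune and microglial signalling, was dim. Its probe set 1449473_s_at read 41.2, 20.3 and 15.1 in CD25 controls and 51.3, 49.2 and 68.7 in AcP with AcPb controls, which was higher by 0.84 ± 0.26 (adjusted p = 0.039). The groups did not overlap. The call was lost without CD25 control replicate 2 or 3 (0.77 and 0.66, adjusted p = 0.12 and 0.16) and without any 1 of the AcP with AcPb controls (0.72 to 0.91, adjusted p = 0.065 to 0.12). It was also lost under quantile normalization (0.80, adjusted p = 0.059), with array medians centred (0.80, adjusted p = 0.061), with no filter on dim probe sets (adjusted p = 0.060), with 4 added (1.12, adjusted p = 0.059) and with only the arrays compared in the fit (adjusted p = 0.089), and its size fell to 0.43 with 64 added. AcP controls, at 56.1, 33.0 and 30.2, and AcPb controls, at 22.6, 17.8 and 11.1, had differences of 0.45 and -0.29 with no call. The probe set 1449473_s_at is of the kind that may be shared by several transcripts.

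**Figure D3:**
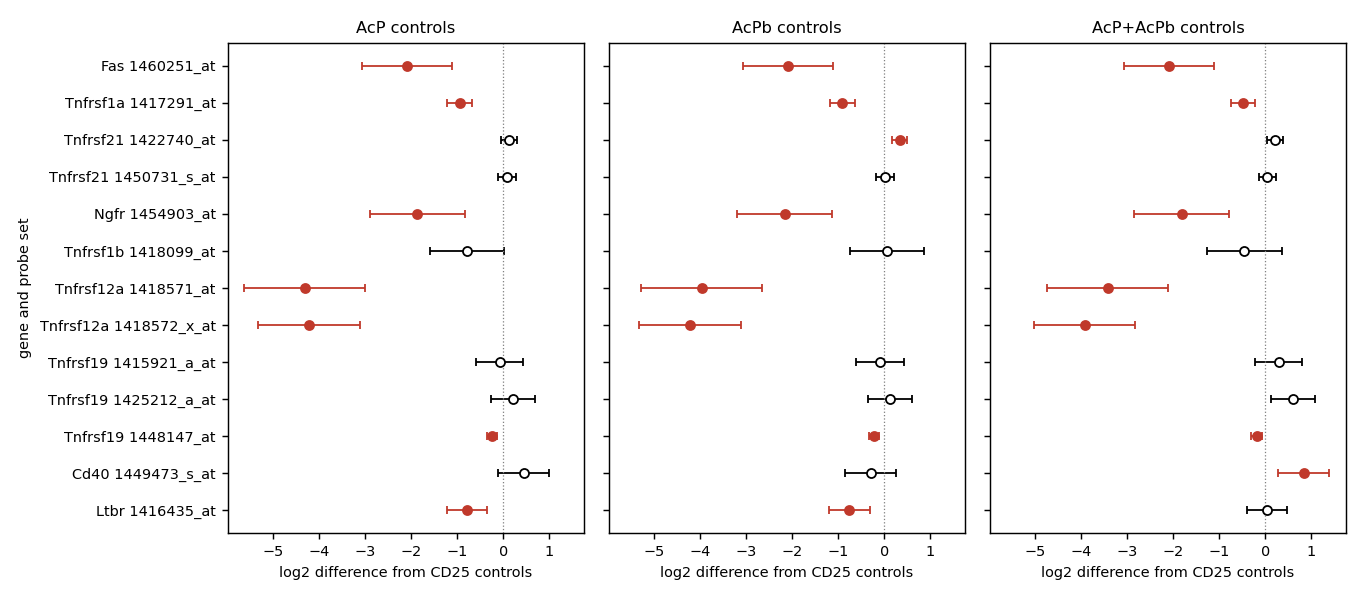
Difference from CD25 controls (log2 of intensity + 16, x axis) of the 13 tested member probe sets (y axis) in controls of the 3 accessory protein arms; bars are 95% intervals and filled red points passed at adjusted p under 0.05. Both Tnfrsf12a probe sets, Fas, Tnfrsf1a, Ngfr and Tnfrsf19 1448147_at lie left of 0 in each panel.

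The plot of differences from CD25 controls shows 6 probe sets, of 5 genes, called lower in each of the 3 panels, while Ltbr was called lower in 2. Fas, whose difference is set by the floor and whose testing leaned on CD25 among controls, is 1 of the 5. Single arrays weighed on the number called: it fell from 8 to 4 in AcPb without CD25 control replicate 2 or without AcPb control replicate 2, and from 7 to 3 in AcP with AcPb without CD25 control replicate 2 or without CD25 control replicate 3, and to 4 without AcP with AcPb control replicate 2. Among the accessory protein arms themselves, AcP with AcPb minus AcP controls had 0 members called by limma (0.181% of all probe sets), with 2 at an unadjusted p under 0.05 (10.7% of all). These were Ltbr at 0.82 ± 0.21 (adjusted p = 0.13, and 1.13 with adjusted p = 0.0087 without AcP with AcPb control replicate 1) and Tnfrsf1a at 0.46 ± 0.13 (adjusted p = 0.17).

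The IL-1b arrays, compared after the control results had been seen, gave part of the same picture. With IL-1b in both groups, Tnfrsf1a was lower than in CD25 in AcP (-0.75 ± 0.13, adjusted p = 0.0011), AcPb (-0.88 ± 0.13, adjusted p = 0.00069) and AcP with AcPb (-0.78 ± 0.13, adjusted p = 0.00082). Its IL-1b arrays read 767, 912 and 988 in CD25, 555, 496 and 513 in AcP, 551, 448 and 427 in AcPb and 507, 439.8 and 584 in AcP with AcPb. Over controls and IL-1b together, the 6 CD25 arrays held 767 to 988 and the other 18 arrays 422 to 698, without overlap. Tnfrsf12a was called lower on both probe sets in AcPb (-3.42 ± 0.52 and -4.03 ± 0.62, adjusted p = 0.0012 for each), in which no IL-1b change of it had passed. Ngfr read 85.0, 87.7 and 495 in IL-1b-treated CD25 neurons, 29.0, 53.5 and 42.7 in AcP, 51.9, 48.4 and 39.0 in AcPb and 46.6, 57.9 and 35.1 in AcP with AcPb. It was called lower in AcP alone (-1.62 ± 0.49, adjusted p = 0.0495), with 1 CD25 array far above the others. Over all arrays the 6 with CD25 held 85.0 to 495 and the other 18 held 17.5 to 62.4.

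In these IL-1b arrays 3 member probe sets were called lower and 1 higher in AcP (8.1% of all called either way), 4 lower in AcPb (2.15%), and 1 lower and 3 higher in AcP with AcPb (10.7%). Ltbr was lower in AcP (-0.80 ± 0.21, adjusted p = 0.023), with 179, 200.5 and 327 in CD25 against 134, 121 and 118. Cd40 was higher in AcP (1.03 ± 0.26, adjusted p = 0.020) and in AcP with AcPb (1.16 ± 0.26, adjusted p = 0.0093), with 20.6, 12.4 and 5.16 in CD25 against 40.2, 28.8 and 58.6 and 32.7, 44.1 and 67.3. Those groups did not overlap. Tnfrsf21 1422740_at, at 607, 609.9 and 615 in AcP with AcPb against 508, 507 and 481 in CD25, was higher by 0.28 ± 0.08 (adjusted p = 0.031). Its difference in AcPb was of the same size, 0.28 ± 0.08, with no call. In AcP with AcPb Tnfrsf19 1425212_a_at was higher (1.03 ± 0.23, adjusted p = 0.0073), and 1448147_at had -0.15 with no call (adjusted p = 0.095). In AcPb 1448147_at was lower (-0.25 ± 0.06, adjusted p = 0.021), and 1425212_a_at had 0.34 with no call (adjusted p = 0.56). Fas, with CD25 arrays that reached -17.9, had no call in the IL-1b arrays.

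**Figure D4:**
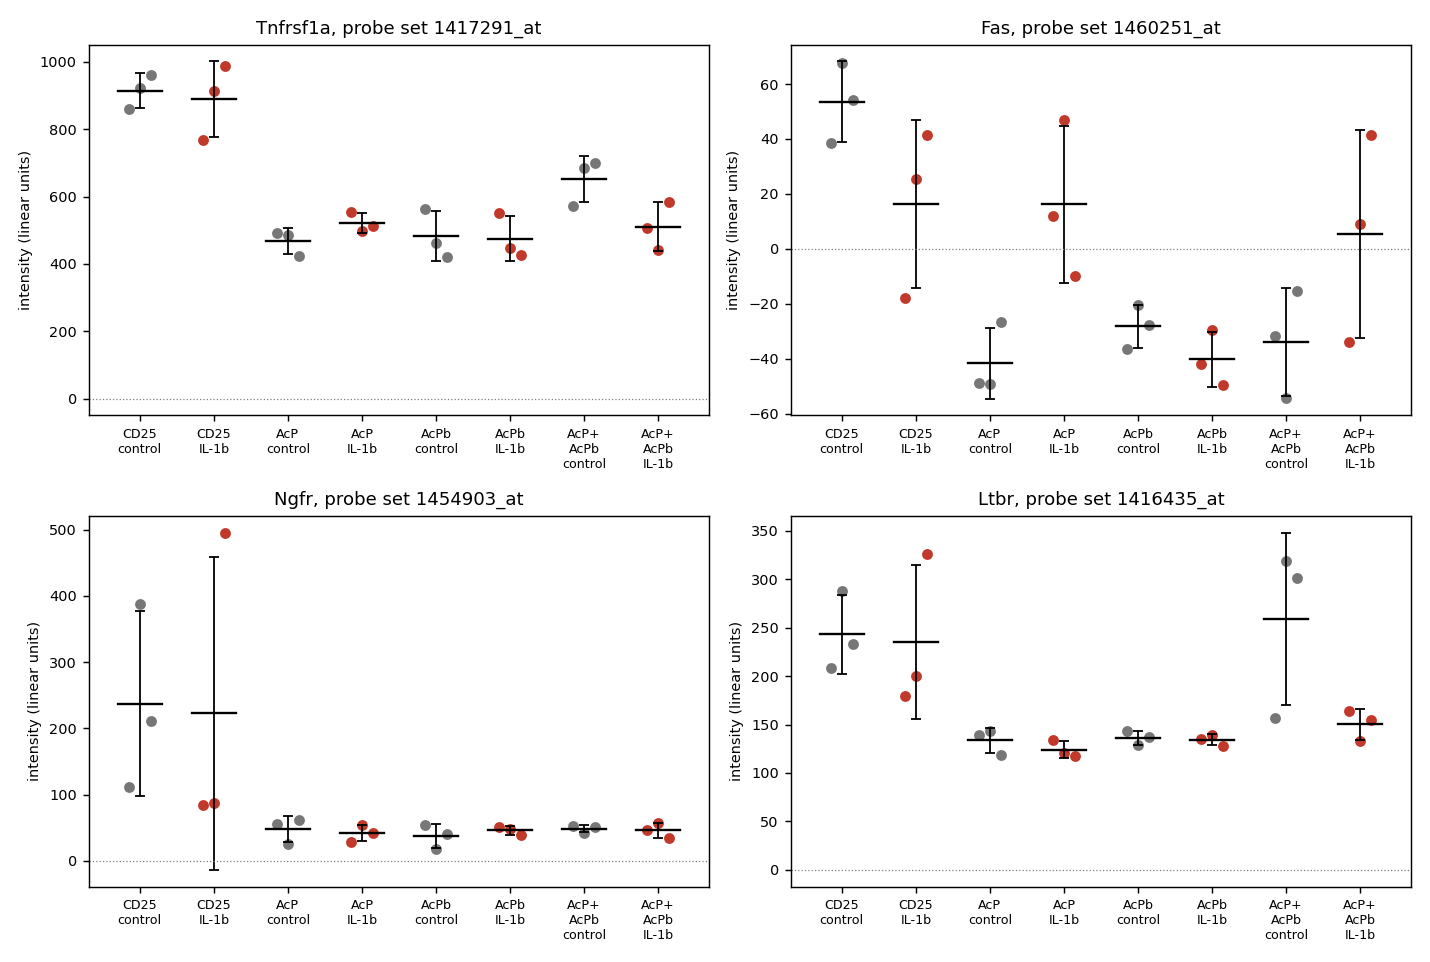
Intensity of Tnfrsf1a, Fas, Ngfr 1454903_at and Ltbr in each array (points, linear units) over the 8 groups, controls in grey and IL-1b in red, with group mean (line) and SD (bars, n = 3 arrays). CD25 arrays of Tnfrsf1a hold 767 to 988 and those of Ngfr 85.0 to 495, above all arrays of the other arms.

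The plot of these receptors by array shows how unevenly CD25 arrays were spread. CD25 IL-1b replicate 3 was the highest of the 6 CD25 arrays for Tnfrsf1a, Ngfr, Ltbr and both Tnfrsf12a probe sets, and CD25 control replicate 2 was next for Ngfr, Ltbr and both Tnfrsf12a probe sets. In the arm with AcP and AcPb, Ltbr was high in control replicates 2 and 3 only.

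Some markers of other cells also differed between the arms, in either direction. Over all probe sets 10.3%, 4.59% and 14.3% were called either way against CD25 controls in AcP, AcPb and AcP with AcPb. For 14 progenitor and dividing probe sets, 5, 4 and 6 were lower in these arms and 2, 1 and 2 higher. Among 27 astrocyte probe sets 6, 4 and 2 were lower and 4, 0 and 3 higher. Neuronal probe sets, 24 in all, had 0, 1 and 0 lower and 0, 0 and 3 higher. Vascular and fibroblast probe sets had 1, 2 and 2 of 9 lower. The summed intensity of 7 progenitor and dividing cell markers was 4184 to 4518 in CD25 controls, 3030 to 3333 in AcP controls, 3342 to 3535 in AcPb controls and 2740 to 3048 in AcP with AcPb controls, with no overlap between CD25 and the others; 3, 2 and 4 of the 7 genes were lower and 1 was higher in each arm. Nes, an intermediate filament of neural progenitors, had means of 847 ± 153 in CD25 controls, 400.3 ± 80.1 in AcP, 413 ± 29.3 in AcPb and 497 ± 32.5 in AcP with AcPb (SD, n = 3). Gfap, the intermediate filament of astrocytes, had means of 1936 ± 580 in CD25 controls, 482 ± 178 in AcP, 568 ± 165 in AcPb and 1360 ± 378 in AcP with AcPb. The means of Ltbr in the same groups were 243 ± 40.6, 134 ± 13.2, 136 ± 7.34 and 259 ± 89.0. A link between Ltbr and Gfap was not tested. Neither Nes nor Gfap was named by the rule given for naming genes. Other astrocyte genes were higher in AcP and in AcP with AcPb, as the counts that follow show. The astrocyte list as a whole was 15806 to 22038 in CD25 controls and overlapped all other groups, and of its 9 genes 4, 2 and 2 were lower and 3, 0 and 3 higher in AcP, AcPb and AcP with AcPb. Of 12 neuronal marker genes 0, 1 and 0 were lower and 0, 0 and 2 higher, and of 6 tested oligodendrocyte lineage genes 0, 0 and 1 were lower and 1, 1 and 0 higher. In AcP with AcPb that 1 gene accounted for 6 of 15 oligodendrocyte lineage probe sets called lower. The list median there was -0.83, against -0.00 over all probe sets. Medians in AcP and AcPb were -0.25 and 0.04. Summed intensities were 4021 to 5708 in CD25 controls and 3752 to 4933 in AcP with AcPb controls, which overlapped. The vascular and fibroblast list had 1, 2 and 2 of 7 tested genes lower. Its summed intensity was 604 to 671 in CD25 controls and 554 to 591 in AcP with AcPb controls, without overlap. AcP controls (528 to 655) and AcPb controls (541 to 640) overlapped CD25 controls. With IL-1b, CD25 arrays (629 to 697) lay above those of AcP (442 to 593) and AcP with AcPb (499 to 590). AcPb arrays with IL-1b (613 to 680) overlapped the CD25 arrays. The part of these cells in the receptor differences was not tested. In the AcP response to IL-1b, where Tnfrsf12a rose, limma called 0 genes of any of the 6 marker lists; at an unadjusted p under 0.05 there were 0 of 24 neuronal, 1 of 27 astrocyte, 0 of 5 microglial, 1 of 15 oligodendrocyte lineage, 1 of 9 vascular and fibroblast and 2 of 14 progenitor probe sets, against 8.24% of all.

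**Figure D5:**
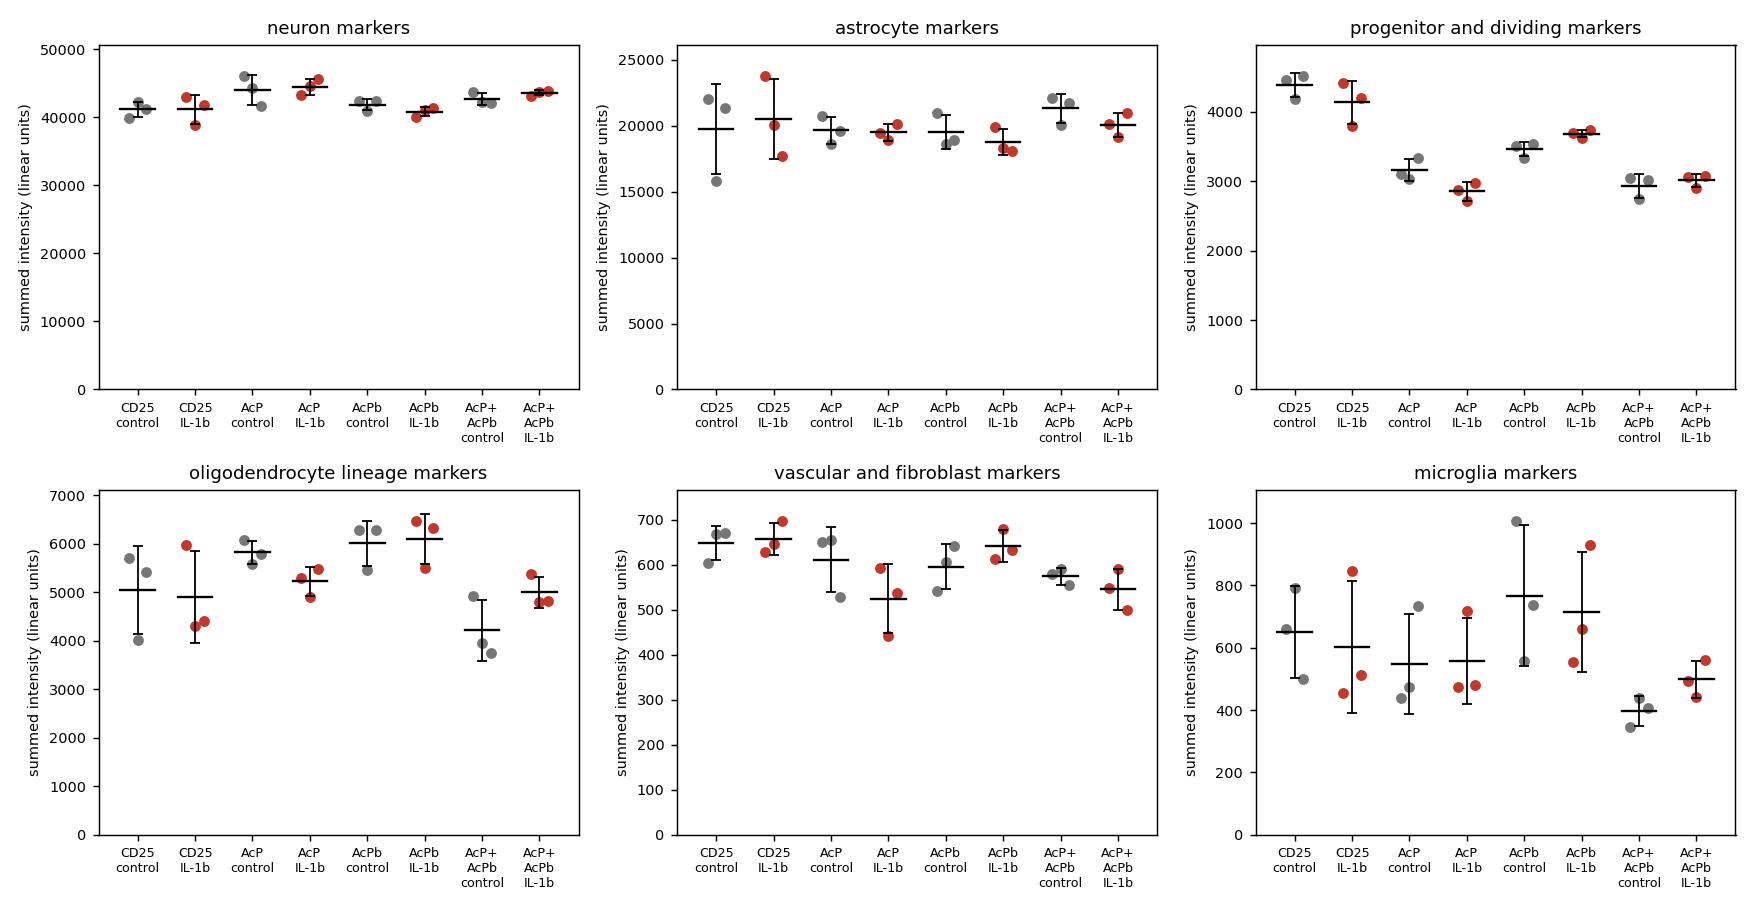
Summed intensity (linear units, y axis from 0) of 6 lists of cell type markers in each array (points) over the 8 groups, with mean (line) and SD (bars, n = 3 arrays). Progenitor and dividing markers are highest in CD25 arrays, at 4184 to 4518 in controls, while neuron markers stay between 38780 and 46050.

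The plot of marker sums also shows microglial markers between 346 and 1006, a sum over a list of 9 genes of which 3 could be tested and 0 were called in these comparisons with CD25 controls. The codes in the array names also followed the arms: CD25, AcP and AcPb arrays share one code and the AcP with AcPb arrays carry the others, so in the comparisons of that arm with another, code and arm cannot be told apart.

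The other 7 member probe sets were too dim to test. Both Tnfrsf10b probe sets were among them, with 1421296_at between -8.96 and 13.8 and 1422344_s_at between -14.6 and 30.9 over the 24 arrays, so the TRAIL receptor gave no measurable level here. Ngfr 1421241_at was below 0 on all 24 arrays and 1450177_at on 17, unlike 1454903_at, which was above 0 on all. Cd40 1460415_a_at was below 0 on 19 arrays and 1439221_s_at read -0.11 to 23.1. Tnfrsf1b 1448951_at was below 0 on 21 arrays. Untested probe sets of a gene with a tested one do not show that the gene was silent.

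Around the receptors, 99 genes were listed by role, of which 65 were tested. Of the adaptors and the NF-kB arm, Birc3 and Relb rose with IL-1b in AcP and in AcP with AcPb, and 0 others of the 25 tested genes were called in an IL-1b comparison. Birc3, an inhibitor of apoptosis that TRAF2 brings to TNF receptors, rose by 1.52 ± 0.23 in AcP (adjusted p = 0.0020) and 1.58 ± 0.23 in AcP with AcPb (adjusted p = 0.0020), with -0.10 in CD25 and 0.12 in AcPb. Relb, the NF-kB subunit of the non-canonical pathway that Tnfrsf12a, Cd40 and Ltbr can engage, rose by 0.78 ± 0.16 in AcP (adjusted p = 0.045) and 0.92 ± 0.16 in AcP with AcPb (adjusted p = 0.015), with -0.15 in CD25 and 0.03 in AcPb. Of the differences between responses, none of this list passed by limma: AcP minus CD25 was 1.61 ± 0.33 for Birc3 (adjusted p = 0.056) and 0.92 ± 0.23 for Relb (adjusted p = 0.20), with 11 of the 51 probe sets at an unadjusted p under 0.05 (8.5% of all). The median change of the list in AcP was 0.06, against -0.00 for all probe sets.

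In the 4 other lists limma called 0 genes in the IL-1b comparisons or their differences; in AcP, 1 of 10 ligand probe sets, 1 of 11 of other receptors, 2 of 33 of the death arm and 3 of 26 of p75 partners had an unadjusted p under 0.05, against 8.24% of all probe sets. Their median changes in AcP were 0.06, -0.20, 0.03 and -0.04. Of the death arm, 14 of 19 genes were tested; Cflar, the caspase-8 inhibitor c-FLIP, had the largest change in AcP at 0.91 ± 0.22 (adjusted p = 0.10), followed by Casp8 at 0.47 ± 0.37. Of 21 ligands 8 were tested, and the largest changes in AcP were those of Tnfsf4 (OX40 ligand) at 0.76 ± 0.63 and Bdnf, whose precursor binds Ngfr, at 0.32 ± 0.12. Of 18 other receptors 10 were tested, led by Tnfrsf22 at -0.35 ± 0.18 and Tnfrsf13c, the BAFF receptor, at -0.34 ± 0.16. Of 11 partners of p75 8 were tested, led by the neurotrophin receptors Ntrk2 at -0.44 ± 0.22 and Ntrk3 at 0.35 ± 0.18. None of these passed. In AcP against CD25 controls, 2 adaptor genes were higher and 4 lower, 1 death arm gene was higher and 1 lower, 1 ligand was higher and 1 lower, 1 other receptor was lower and 2 p75 partners were higher. In AcPb 2 adaptor genes and 1 other receptor were lower, and 1 death arm gene and 1 p75 partner were higher. In AcP with AcPb 2 adaptor genes were higher and 3 lower (Map3k7 counts in both, since its probe sets disagreed), and 3 death arm genes, 1 other receptor and 2 p75 partners were higher. Over all probe sets 10.3%, 4.59% and 14.3% were called either way in AcP, AcPb and AcP with AcPb. Adaptor probe sets called were 3 higher and 4 lower of 51 in AcP, 0 and 2 in AcPb, and 3 and 3 in AcP with AcPb. Death arm probe sets called were 1 higher and 1 lower of 33 in AcP, 1 and 0 in AcPb, and 3 and 0 in AcP with AcPb. Faim2, an inhibitor of Fas-mediated death in neurons, was singled out after its values were seen. It was higher than in CD25 controls in AcP (0.69 ± 0.09, adjusted p = 3.5e-05), AcPb (0.42 ± 0.09, adjusted p = 0.0077) and AcP with AcPb (0.67 ± 0.09, adjusted p = 5.9e-05). A link between Faim2 and Fas was not tested, and the Fas difference is set by the floor. The counts in these lists rest on the same CD25 control arrays as those of the members.

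The probe sets whose log2 values ran most like Tnfrsf12a 1418572_x_at over the 24 arrays belonged to Trim47 (Pearson r = 0.97), S1pr3, a receptor for sphingosine 1-phosphate (r = 0.96), and Susd6 (r = 0.95). This is a description over arrays that share the difference between CD25 and the other arms.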

How the data were processed

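The deposited table held 1 linear intensity per probe set and array, made by the authors; the summarisation, scaling and detection calls are not given in the sources used here. Per the labels, the Eberwine method gave the biotin label. From these intensities, 40 control probe sets were removed from 45077, values below 0 were set to 0, and log2 of the deposited intensity plus 16 was fitted with limma 3.58.1 (lmFit and eBayes, R 4.3.3) as 8 group means over all 24 arrays, with 16 residual degrees of freedom. A probe set was tested where 3 or more arrays lay above their own 40th percentile. Two-sided p-values were adjusted by Benjamini-Hochberg over 30468 probe sets in each of 11 comparisons and called at 0.05; an exact permutation test of 3 against 3 arrays cannot go below 0.1. The 3 comparisons of IL-1b arrays with CD25 were added after the data were seen. Symbols came from the platform annotation (34945 probe sets with 1 symbol, 932 with several, 9160 with none).

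Values in every array were given for members called in a planned comparison. Of each pathway list, genes called with IL-1b were named, or otherwise those with the 2 largest changes in AcP, and for each member called with IL-1b the 3 probe sets most correlated with it. The members and lists were chosen with earlier results of these data known. The fit was tested on simulated data. Same-numbered arrays were checked for pairing: correlations of their deviations ran from -0.12 to 0.19, so the numbers were not used as pairs. Alternatives covered normalization, filter, added constant, array weights, intensity trend, blocks, the arrays fitted and leaving out each array. The number of arrays limits the precision.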

Additional observations from a re-analysis of the deposited data

How the results depend on the processing

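No alternative turned the direction of a called member. The count in AcP with IL-1b, 1, was 0 with array weights and 2 with 4 added, with a generalised log and with an intensity trend; leaving out single arrays gave 1 to 2, and in AcP with AcPb 0 to 1. The AcP minus CD25 response difference, 0, was 1 with the 60th percentile filter, with an intensity trend and with only the arrays compared, and 0 to 1 on leaving out arrays. Counts against CD25 controls, 7, 8 and 7, were 4 and 5 in AcP and AcPb with only the arrays compared and 4 in each arm with IL-1b arrays in place of controls (chosen after seeing the data); leaving out arrays gave 5 to 7, 4 to 7 and 3 to 7, and 0 to 1 for AcP with AcPb minus AcP controls. In the IL-1b arrays the calls were 3 lower and 1 higher in AcP and 4 lower in AcPb. In AcP with AcPb they were 1 lower and 3 higher, against 6 lower and 1 higher in controls. The replicate block gave 1 in AcP with IL-1b and 7, 7 and 7 against CD25 controls. The fit with array code as a block left out the comparisons of AcP with AcPb controls with CD25 controls and with AcP controls. Over all probe sets the counts ranged, over the alternatives, from 48 to 322 in AcP with IL-1b (123 as reported), 8 to 143 in AcP with AcPb (78), 1 to 185 in AcPb (3) and 0 to 9 in CD25 (0), from 35 to 276 (58), 0 to 25 (1) and 0 to 7 (1) in the response differences, and from 569 to 5262 (3135), 839 to 2994 (1400) and 2271 to 5770 (4347) against CD25 controls, and 1 to 271 (55) for AcP with AcPb minus AcP controls. Members below 0 have no measured level, so small changes in them could not be seen.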
